A study of Mus musculus with 4 samples.

Results

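The collagen genes encode the chains of the collagen triple helices, and were taken here as all autosomal protein-coding genes of the RefSeq mouse annotation whose symbol is Col, a number, the letter a and a number. There were 42 such genes among 20665 autosomal protein-coding genes. Their methylation was read at 4579 CpGs that each library covered with 10 or more reads, of 1566008 such autosomal CpGs, each lying in a collagen gene body or within 5 kb of it (build mm10); 104 of them lay in the regions of 2 collagen genes. The 5 kb on either side can hold parts of other genes. The X-linked Col4a5 and Col4a6 were not included.

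The assay was reduced representation bisulfite sequencing, in which DNA is cut with MspI (CCGG) and TaqI (TCGA), so that reads gather at CpG-rich stretches, and bisulfite turns unmethylated cytosines into uracil. The DNA came from the liver of C57BL6/N mice aged 6 weeks. There were 2 libraries from Pnpla7-/- animals (KO) and 2 from Pnpla7+/+ animals (WT); Pnpla7 encodes a lysophospholipase. The labels name no treatment and no other allele for either genotype. They do not say how the KO allele was made or whether each library is a different animal, so the p-values measure only the spread between these libraries, which may be technical.

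Collagens are the main structural proteins of the extracellular matrix. Fibrillar collagens form cable-like fibrils, basement membrane collagens form sheets under epithelia and vessels, and FACIT, beaded-filament, network-forming, transmembrane and multiplexin collagens link, anchor or decorate these. In liver, hepatic stellate cells and portal fibroblasts make most fibrillar collagen, above all in fibrosis, while hepatocytes, the bulk of the tissue, make little. CpG methylation is usually low at CpG-rich gene starts and high along gene bodies. A level measured in whole liver is the share of reads over all its cell types, so a change within a cell type and a change in the share of that type cannot be told apart.

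The promoter sequences differ widely in the cut sites and CpGs that the assay reads. RefSeq (GRCm38.p6) gave a promoter, from 250 bases before to 50 after the start, for 33 of the 42 genes; 20 held an MspI site (CCGG), 5 a TaqI site (TCGA) and 13 neither. Among all 31396 autosomal promoters of the same length, 53.5% held CCGG and 22.1% TCGA; both motifs read the same on either strand, and each match is a description only. The median collagen promoter held 12 CpGs (range 0 to 37), and 17 of the 33 held analysed CpGs. The 5 printed here are the gene with the differing segment described below (Col27a1), the most CpG-rich member (Col4a1, whose start is 21 bp from that of Col4a2), the type I chain with a sequence (Col1a2), a member with partial methylation (Col6a5) and a member with no CpG there (Col3a1). Capitals mark CpGs, and each sequence reads 5′ to 3′ on the strand of its gene.
Col27a1 promoter, chr4:63215162-63215461, plus strand: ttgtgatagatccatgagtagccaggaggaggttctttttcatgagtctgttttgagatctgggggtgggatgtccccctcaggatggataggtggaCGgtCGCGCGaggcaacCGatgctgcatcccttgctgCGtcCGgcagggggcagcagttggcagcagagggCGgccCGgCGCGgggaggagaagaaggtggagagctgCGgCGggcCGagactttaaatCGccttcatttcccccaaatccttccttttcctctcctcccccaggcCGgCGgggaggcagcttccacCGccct
Col4a1 promoter, chr8:11312777-11313076, minus strand: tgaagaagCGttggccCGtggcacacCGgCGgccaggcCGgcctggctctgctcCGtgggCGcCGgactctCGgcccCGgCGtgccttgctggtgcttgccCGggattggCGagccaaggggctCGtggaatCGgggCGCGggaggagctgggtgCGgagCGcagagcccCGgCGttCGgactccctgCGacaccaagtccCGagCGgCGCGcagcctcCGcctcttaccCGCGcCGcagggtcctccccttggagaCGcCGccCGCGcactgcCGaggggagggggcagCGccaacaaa
Col1a2 promoter, chr6:4505368-4505667, plus strand: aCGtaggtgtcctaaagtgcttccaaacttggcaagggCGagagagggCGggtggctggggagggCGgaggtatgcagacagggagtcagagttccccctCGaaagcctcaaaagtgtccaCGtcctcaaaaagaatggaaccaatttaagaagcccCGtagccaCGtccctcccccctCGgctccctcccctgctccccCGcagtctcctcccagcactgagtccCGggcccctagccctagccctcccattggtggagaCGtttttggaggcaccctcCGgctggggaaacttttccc
Col6a5 promoter, chr9:105960594-105960893, minus strand: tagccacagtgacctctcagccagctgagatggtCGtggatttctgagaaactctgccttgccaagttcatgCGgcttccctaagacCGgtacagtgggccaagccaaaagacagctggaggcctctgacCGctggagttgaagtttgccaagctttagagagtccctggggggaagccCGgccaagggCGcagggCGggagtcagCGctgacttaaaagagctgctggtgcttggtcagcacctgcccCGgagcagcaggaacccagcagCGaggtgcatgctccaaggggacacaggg
Col3a1 promoter, chr1:45311288-45311587, plus strand: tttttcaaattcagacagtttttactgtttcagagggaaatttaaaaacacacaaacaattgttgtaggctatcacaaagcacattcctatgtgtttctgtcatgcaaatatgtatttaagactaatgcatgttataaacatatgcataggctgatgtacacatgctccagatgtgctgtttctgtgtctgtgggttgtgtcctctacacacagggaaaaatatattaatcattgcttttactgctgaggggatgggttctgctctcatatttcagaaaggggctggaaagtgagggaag

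All 18 CpGs printed in capitals for Col27a1 were analysed. Together they were methylated in 0.798% and 0.141% of reads in the KO libraries and in 0% and 0.904% in the WT libraries. The 0% is 0 of 492 reads, which would allow a share of up to 0.61% if all were separate reads. A read is counted at each CpG it covers, so the share allowed is higher than that. The Col4a1 promoter, with 24 of its 37 CpGs analysed, had 0.371% and 0.597% in KO and 0.37% and 0.678% in WT. In the Col1a2 promoter 9 of 13 CpGs were analysed, with 0.922% and 2% in KO and 2.21% and 2.46% in WT. These 3 promoters were thus almost unmethylated in every library. The 10 CpGs of the Col6a5 promoter were partly methylated, at 11.1% and 9.4% in KO and 11.5% and 11% in WT, with single CpGs from 0% to 37.5%.

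The libraries differed little in depth over these genes. Reads over cytosines numbered 59953688 and 60535892 in KO replicates 1 and 2, and 50413170 and 59437109 in WT replicates 1 and 2. At the collagen CpGs the median depth was 23 and 23 reads in KO, and 21 and 23 in WT. Start windows of marker genes could check the tissue label only in part, since of 6 hepatocyte markers only Serpina1a was covered, at 76% and 75% in KO and 68.8% and 59% in WT, whereas Alb, Apoa1, Ttr, Cps1 and Fga were not. Over the covered windows the mean level was 22.4% and 21.3% in KO and 19.8% and 23% in WT for stellate and fibroblast markers (5 of 7 covered). For leukocyte markers (3 of 5) it was 26.6% and 30.5% in KO and 27.4% and 27.7% in WT. For Kdr, the 1 covered of 4 endothelial markers, it was 2.4% and 1.51% in KO and 2.63% and 3.39% in WT. Serpina1a lay above WT in both KO libraries, by 11.6 points on average over 3 CpGs (quasi-binomial adjusted p = 0.87). Kdr lay below WT in both (quasi-binomial adjusted p = 0.818). The stellate and leukocyte means overlapped, but Pdgfrb of the first list and Coro1a of the second also lay below WT in both KO libraries. Their other covered windows overlapped. Within the stellate and fibroblast list the KO means of single windows ran from 0.574% to 69.1%. Within the leukocyte list they ran from 0.453% to 77.6%, so a single window can weigh heavily in the mean of a list. The part of these markers in the results below was not tested.

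Averaged over all 4579 collagen CpGs, methylation was slightly higher in KO. The mean level was 59.7% and 59.6% in KO replicates 1 and 2, against 59.2% and 58.7% in WT replicates 1 and 2, a difference of 0.747 percentage points (exact two-sided permutation test over libraries, p = 0.33, the smallest that 2 against 2 libraries can give). The groups did not overlap. At the CpGs of the other genes the same means were 37.8% in KO and 37.6% in WT, a difference of 0.188 points. The collagen regions were more methylated than the other genes in both genotypes, and a smaller share of their CpGs lay in dense surroundings, 17.6% having at least 20 listed CpGs within 250 bp against 44.5% in the other genes. Of the collagen CpGs, 2138 had a mean level above 80%, 1225 one below 20%, and 1216 lay between.

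The difference was positive at CpGs with some neighbours and negative at dense CpGs. At the 1663 collagen CpGs with 1 to 4 listed neighbours within 250 bp the mean was 77.8% and 78% in KO, against 77% and 76% in WT, higher in KO by 1.4 points. At the 2079 with 5 to 19 neighbours it was 66.8% and 66.5% in KO, against 66.1% and 65.9% in WT, a difference of 0.675 points. At the 808 dense CpGs it was 3.68% and 3.6% in KO, against 4.08% and 3.89% in WT, a difference of -0.343 points. The genotypes did not overlap in any of these 3 classes. The other genes showed differences of 0.706, 0.219 and -0.116 points in the same 3 classes, so the signs matched those of the collagen genes and the sizes were smaller; this contrast between gene sets was not tested. The 29 collagen CpGs with 0 listed neighbours had 73.5% and 75.3% in KO and 76.6% and 74.2% in WT, which overlapped, with a difference of -0.995 points where the other genes had 0.887. Among the 17 dense collagen CpGs of intermediate level, 9 of them in Col11a2, 6 in Col8a2 and 2 in Col9a3, the mean was 38.8% and 38.7% in KO, against 45.3% and 44.1% in WT. The 10226 CpGs of this class in the other genes were lower in KO as well, at 43.6% and 42.3%, against 47.1% and 45.4% in WT.

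Levels also changed steeply along the genes. Of the 33 genes with a RefSeq start, 24 had analysed CpGs within 1 kb of it. These 794 CpGs averaged 5.21% and 4.67% in KO and 5.13% and 5.15% in WT. CpGs shared by Col4a1 and Col4a2 were counted for each gene. The classes of distance held from 18 to 30 of the genes, so they compare different sets of genes. From 1 to 5 kb after the start the mean was already 64.8% and 63.6% in KO and 64.5% and 62.5% in WT. Farther in, levels were higher still and KO lay above WT in both libraries, with 69.3% and 69.4% in KO against 68.8% and 68.5% in WT between 5 and 20 kb. Between 20 and 50 kb the mean was 77.1% and 77.7% in KO, against 75.9% and 75.7% in WT, the widest gap of the profile at 1.6 points. Beyond 50 kb it was 80.6% and 80.9% in KO and 80.3% and 79.5% in WT. Past the gene end the sign turned, with 69.3% and 69.3% in KO and 70.8% and 69.2% in WT, and the groups overlapped.

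**Figure D1:**
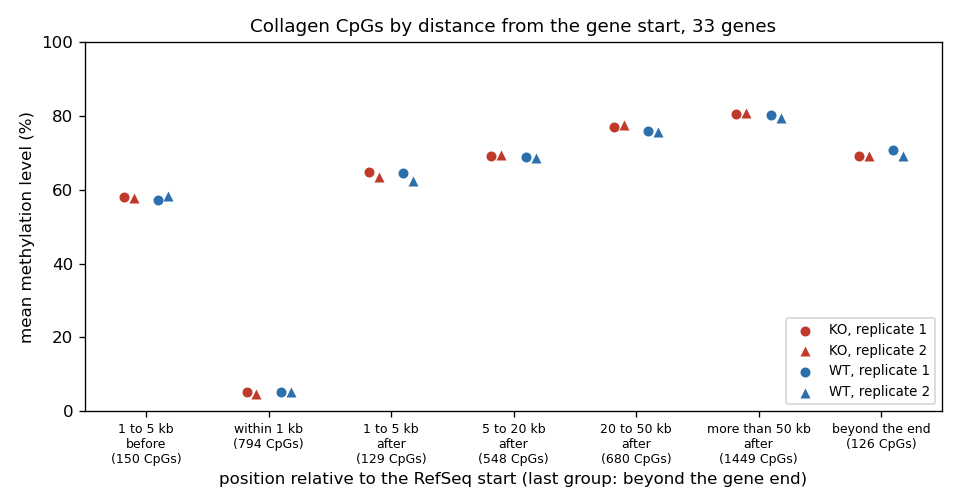
Mean methylation level (y axis, percent) of collagen CpGs in 7 classes of distance from the RefSeq start (x axis, number of CpGs in parentheses), with 1 point per library, KO in red left of WT in blue. CpGs shared by Col4a1 and Col4a2 count for each gene, and the classes hold different sets of genes. All 4 libraries sit near 5% within 1 kb of the start and between 62.5% and 80.9% after it, with KO above WT from 5 kb onward inside the genes.

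Collagen gene regions, taken as the unweighted mean over the CpGs of the gene body and 5 kb either side, were mostly higher in KO but none was called. The test was limma with an adjusted p under 0.05 (Benjamini-Hochberg over 17784 gene regions), which called 0 of 42 collagen regions; in the whole genome it called 1 region, 0.00562% of those tested. The quasi-binomial model on summed reads also called 0 collagen regions. The lowest limma adjusted p of a collagen region was 0.352. Of the 42 regions 32 were higher and 10 lower in KO, where 57.9% of all regions were higher. Both KO libraries lay above both WT libraries in 14 of the 42, against 24.6% of all regions, and below in 1 (Col9a3), against 14.2%. The median difference was 0.75 points for collagen regions and 0.156 for all regions. The 2 sets were not matched for level, as the median WT level was 62.1% for collagen regions and 37.5% for all regions. The collagen median was 1.38 without WT replicate 1 (35 higher, 7 lower), 0.474 without WT replicate 2 (29 higher, 13 lower) and 0.402 from summed reads (28 higher, 14 lower). At an unadjusted limma p under 0.05 there were 10 collagen regions (23.8%, all higher in KO), against 8.71% of all regions (1549, of which 1068 were higher). The median absolute gap was 1.26 points between the 2 KO libraries, 0.995 between the 2 WT libraries and 0.952 between the genotype means. A mean of 2 libraries varies less than a single library, so the last value cannot be set directly against the other 2. Leaving out the windows of 1 kb around the starts, 32 regions were higher and 10 lower, with a median difference of 1.22 points.

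**Figure D2:**
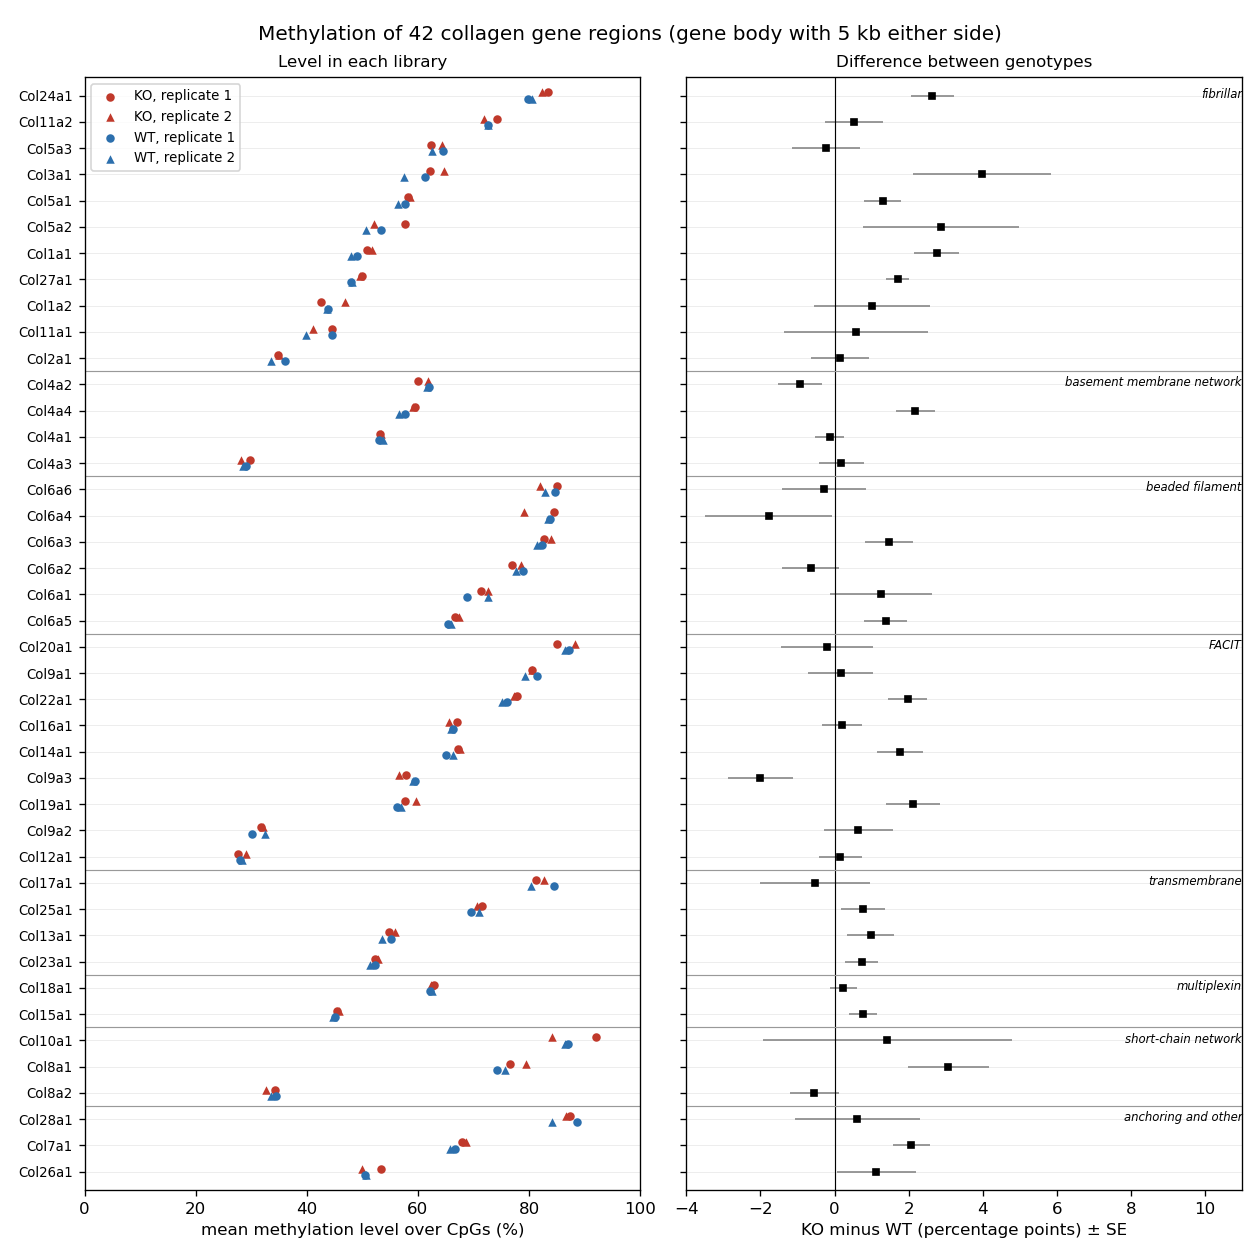
Left, mean methylation level (x axis, percent) of each of the 42 collagen gene regions in the 2 KO (red, drawn above) and 2 WT (blue) libraries, ordered by structural class and by level; right, the difference KO minus WT in percentage points with its limma standard error. The points run from below 30% (Col12a1, Col4a3) to above 85% (Col20a1, Col28a1), and 32 of the 42 squares lie right of 0.

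Fibrillar collagens, the fibril-forming chains, were higher in KO in 10 of 11 regions, against 57.9% of all regions. Both KO libraries lay above both WT libraries in 5 and below in 0, against 24.6% and 14.2% of all regions. The fibrillar CpGs together had 55.3% and 55.1% in KO, against 54.4% and 53.4% in WT. Col27a1, a minor fibrillar chain of cartilage, had the smallest p: its 298 CpGs averaged 49.9% and 49.7% in KO, against 48% and 48.2% in WT, a difference of 1.7 points (SE 0.32, limma adjusted p = 0.352). Col24a1, another minor chain, had 83.4% and 82.3% in KO, against 79.9% and 80.6% in WT (2.64 points, SE 0.575, limma adjusted p = 0.398). It had no analysed CpG within 1 kb of its start. Of its 13 tested 1-kb tiles 11 were higher in KO, against 54.1% of all tiles. In both genes the 2 KO libraries lay above the 2 WT libraries.

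Both chains of type I collagen, the chief collagen of scar tissue, had a higher mean in KO, and no test compared the 2 genes. Col1a1, which encodes the α1 chain, had 50.8% and 51.7% in KO, against 49.1% and 47.9% in WT, with no overlap (2.75 points, SE 0.602, limma adjusted p = 0.398). Of the 91 CpGs in its region 56% had intermediate levels, the highest share among the collagens, followed by Col3a1 at 53.3% and Col11a2 at 48.8%. Of the 13 Col1a1 tiles 10 were higher in KO, against 54.1% of all tiles. Col1a2, the α2 chain, had 42.5% and 46.9% in KO and 43.8% and 43.6% in WT over 28 CpGs, so the groups overlapped. Its difference of 1.02 points turned to -0.547 with at least 5 reads per library, -0.429 with at least 20 and -1.67 with summed reads. Col3a1, the type III chain that joins type I in liver stroma, showed the largest region difference, 62.1% and 64.6% in KO against 61.2% and 57.6% in WT, but over 15 CpGs only (3.98 points, SE 1.87, limma adjusted p = 0.632). It was 0.608 points without WT replicate 2, 1.37 with at least 5 reads per library, where other collagen regions had wider differences, and 8.4 with at least 20. Col5a1, whose product seeds type I fibrils, had 58.2% and 58.6% in KO, against 57.7% and 56.5% in WT (1.3 points, limma adjusted p = 0.56). Col5a3 was the fibrillar member with a lower mean in KO, at 62.4% and 64.3% in KO against 64.5% and 62.6% in WT, with overlapping libraries.

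The basement membrane chains did not share a direction. Col4a1 and Col4a2, which encode the common type IV chains of vessels and sinusoids and lie head to head, had 53.1% and 53.4% in KO against 53% and 53.8% in WT for Col4a1, and 60.1% and 61.7% in KO against 61.9% and 61.7% in WT for Col4a2. Both overlapped between genotypes. Col4a4, which with Col4a3 and Col4a5 forms the type IV network of kidney glomeruli, had 59.5% and 59.1% in KO, against 57.7% and 56.6% in WT, with no overlap (2.18 points, SE 0.529, limma adjusted p = 0.42). This difference was 0.724 points with at least 5 reads per library and 0.114 with at least 20. The region of its head-to-head partner Col4a3 was among the least methylated, at 29.7% and 28.2% in KO and 29% and 28.5% in WT. In that region 41.2% of the CpGs lay in dense surroundings, against 3.53% in the Col4a4 region. The flank of the Col4a3 region reaches into another gene, Mff, and where in the region the dense CpGs lie was not analysed.

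The beaded-filament genes, whose type VI chains form microfibrils around cells, were the most methylated class, at 79.1% and 78.3% in KO and 78.8% and 78.3% in WT, with 3 regions higher and 3 lower. Col6a1 had 71.3% and 72.6% in KO and 68.8% and 72.6% in WT. Col6a2 had 76.9% and 78.5% in KO and 79% and 77.7% in WT. Both overlapped. Col6a5 (66.6% and 67.5% in KO, against 65.4% and 66% in WT) and Col6a3 (82.7% and 84% in KO, against 82.4% and 81.4% in WT) did not overlap, with limma adjusted p of 0.59 and 0.606. With at least 5 reads per library their differences turned to -0.218 and -0.0699 points.

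Among the FACIT genes, whose chains sit on the surface of fibrils, 7 regions were higher and 2 lower, where 57.9% of all regions were higher. Col22a1 had 77.8% and 77.3% in KO, against 76% and 75.1% in WT (1.97 points, SE 0.536, limma adjusted p = 0.431). This difference was 0.837 points without KO replicate 2, 3.47 without WT replicate 1 and 0.595 with at least 20 reads per library. Col19a1 had 57.7% and 59.6% in KO, against 56.2% and 57% in WT (2.11 points, SE 0.728, limma adjusted p = 0.526), and Col14a1 had 67.2% and 67.6% in KO, against 65% and 66.2% in WT (1.77 points, limma adjusted p = 0.532). These 3 did not overlap between genotypes. Col9a3, a type IX chain of cartilage, was the sole member with both KO libraries below both WT libraries, at 57.8% and 56.6% in KO against 59.5% and 59% in WT (-2 points, SE 0.881, limma adjusted p = 0.607). Col12a1 was the least methylated collagen region in both genotypes, at 27.5% and 29% in KO and 28% and 28.3% in WT, and Col20a1 the most methylated in WT, at 85% and 88.2% in KO and 87.2% and 86.5% in WT.

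The remaining classes held 12 genes. Col8a1, a short-chain collagen of vessel walls, had 76.5% and 79.4% in KO, against 74.2% and 75.6% in WT (3.07 points, SE 1.09, limma adjusted p = 0.535). All 8 of its tiles were higher in KO, against 54.1% of all tiles. The Col8a1 difference was 1.64 points without KO replicate 2, 1.56 with at least 20 reads per library and 0.019 in summed reads. Its partner Col8a2 had 34.3% and 32.7% in KO and 34.5% and 33.5% in WT, overlapping. Col10a1, the type X chain of growth cartilage, had 6 analysed CpGs, and its KO libraries lay farther apart (92.1% and 84.1%) than its WT libraries (87% and 86.4%). Col7a1, which encodes the anchoring fibrils of skin, had 67.9% and 68.7% in KO, against 66.7% and 65.7% in WT (2.07 points, SE 0.51, limma adjusted p = 0.42), but differed by 1.16 points with at least 5 reads and by 0.125 in summed reads. Col26a1 had 53.4% and 50% in KO and 50.5% and 50.6% in WT, overlapping. Of the multiplexins, Col15a1 had 45.5% and 45.9% in KO, against 45.2% and 44.7% in WT, and Col18a1, whose product carries endostatin, had 62.9% and 62.3% in KO and 62.2% and 62.5% in WT. Among the transmembrane collagens, Col23a1 had 52.2% and 52.8% in KO and 52.2% and 51.3% in WT, and Col13a1 had 54.8% and 55.8% in KO and 55.1% and 53.5% in WT, both overlapping.

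Start windows, 1 kb on either side of the start, were measured in 30 of the 42 genes; these are 28 distinct windows, since Col4a1 with Col4a2 and Col4a3 with Col4a4 share theirs. Their methylated and unmethylated reads were compared with a moderated quasi-binomial model, and a call needed an adjusted p below 0.05 together with a change of 10 points or more. It called 0 of the 30, against 0.0419% of all 14319 windows. Of the 30 windows 15 were higher and 15 lower in KO. Both KO libraries lay above both WT libraries in 7, against 17.8% of all windows, and below in 10, against 16.5%. In these counts a shared window stands once for each of its genes. In 3 windows the unadjusted p of the quasi-binomial model was under 0.05 (10% of 30, against 6.49% of all windows). Limma on unweighted means called 0 as well. In 22 windows both genotype means were below 10%. Among the lowest were that of Col27a1, at 1.01% and 0.662% in KO and 0.445% and 0.906% in WT over 82 CpGs, and that of Col4a1 and Col4a2, at 0.685% and 0.94% in KO and 0.949% and 0.992% in WT.

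A few starts were methylated. The Col9a1 window, whose promoter sequence holds no CpG, had 76% and 77.6% in KO and 80.2% and 80% in WT over 5 CpGs. The Col1a1 window, placed at the gene end with more CpGs, had 20.9% and 19.2% in KO and 21.7% and 16.9% in WT over 7 CpGs. That of Col7a1 had 23.3% and 19.6% in KO, against 23.6% and 23.4% in WT, over 18 CpGs. That of Col6a5 had 22.8% and 22.3% in KO, against 21.4% and 18.6% in WT, over 16 CpGs. The Col11a2 window had 45.4% and 43% in KO, against 48.7% and 51.8% in WT, over 22 CpGs (-6.08 points, p = 0.0077, quasi-binomial model, adjusted p = 0.516). At 10 of these CpGs both KO libraries lay below both WT libraries and at none above, against 12.6% and 14.5% of all single CpGs. Neighbouring CpGs can share reads, so the 10 are not separate observations. The rest of the Col11a2 region went the other way, at 80.6% and 78.7% in KO, against 78.1% and 77.4% in WT. A CpG 2.15 kb after the Col11a2 start had 67.5% and 57.1% in KO, against 35.1% and 29.8% in WT. The other windows with an unadjusted p under 0.05 were at low levels and higher in KO. Col26a1 had 8.7% and 10.3% in KO, against 7.14% and 5.35% in WT (quasi-binomial adjusted p = 0.644), and Col8a2 had 9.36% and 7.67% in KO, against 6.38% and 6.15% in WT (quasi-binomial adjusted p = 0.699).

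**Figure D3:**
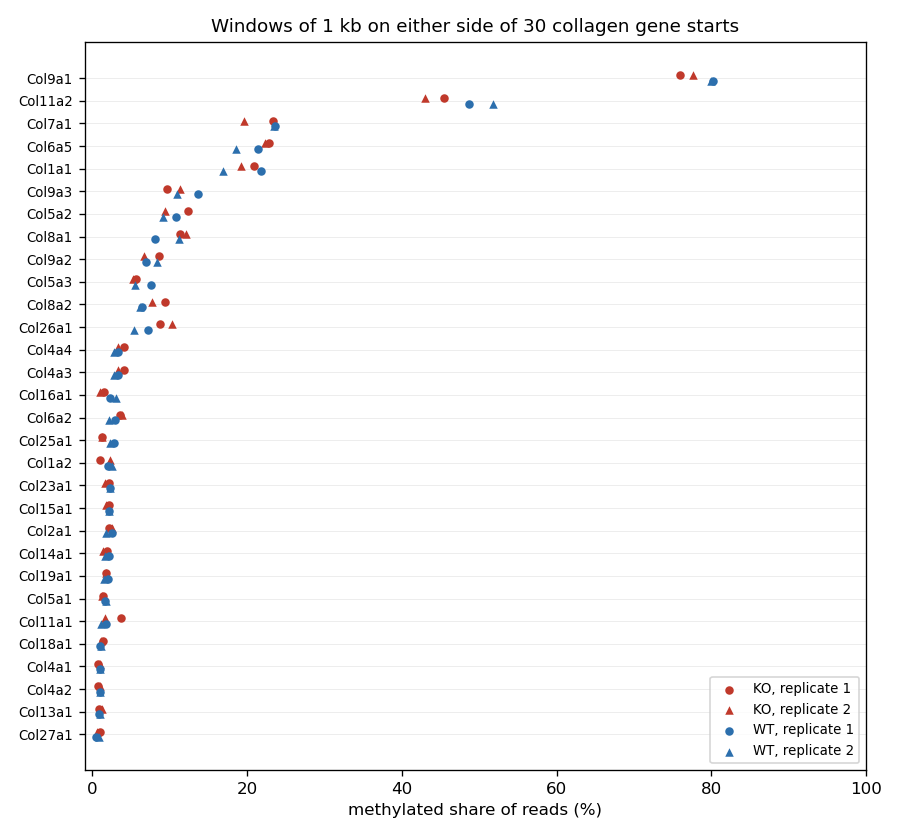
Methylated share of reads (x axis, percent) in the windows of 1 kb on either side of 30 collagen gene starts, ordered by WT mean, with the 2 KO libraries in red (drawn above) and the 2 WT libraries in blue. In 22 genes both means are below 10%, and Col9a1 and Col11a2 stand apart at the top, with KO left of WT.

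Of 588 tested 1-kb tiles in collagen regions, 1 was called by the quasi-binomial model, against 0.0901% of the 159884 tiles of the genome (0.0694% called higher in KO and 0.0206% lower). Of the 588, 332 were higher and 256 lower in KO, both KO libraries lay above both WT libraries in 131 and below in 86, and 51 (8.67%) had an unadjusted p under 0.05, against 6.31% of all tiles. Non-overlap occurred in 19.6% (above) and 14.9% (below) of all tiles.

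The called tile lies in the Col27a1 gene body, chr4:63257001-63258000 (mm10), with its centre 42.1 kb after the start, and no other gene of the annotation overlaps it. It had 52.5% and 57% in KO replicates 1 and 2, against 31.5% and 32.7% in WT replicates 1 and 2, with no overlap. The difference was 22.7 points (adjusted p = 0.00241, quasi-binomial model). Summed over its 8 CpGs there were 280 and 291 reads in KO and 248 and 297 in WT, a read being counted at each CpG it covers. The 95% exact Clopper-Pearson intervals were 46.5% to 58.5% and 51.1% to 62.8% in KO, and 25.7% to 37.6% and 27.4% to 38.3% in WT. These intervals treat every count as a separate read, so they are too narrow even for counting error, and they cover no other error. With limma on the unweighted means of its CpGs the difference was 17.5 points and the tile was not called (adjusted p = 0.778); that test called no tile of the genome. The tile was chosen by its difference, so that its CpGs are given as a description.

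Whether the tile lies in an exon or an intron was not analysed here. The hairpin of Mir455, a microRNA hosted by Col27a1, ends 69 bp before it, at chr4:63256851-63256932 on the plus strand. RefSeq (GRCm38.p6) gives both mature strands, shown because each carries an analysed CpG; capitals mark the seed, bases 2 to 8, and the seeds differ from each other.
mmu-miR-455-5p: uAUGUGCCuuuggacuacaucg
mmu-miR-455-3p: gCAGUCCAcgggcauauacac

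In the genomic copy of mmu-miR-455-5p the CpG starts at base 21, and in that of mmu-miR-455-3p at base 9, just after the seed. The first of these Col27a1 CpGs had 28.4% and 44.1% in KO, against 23.5% and 21.4% in WT. The second had 61.9% and 47.6% in KO, against 34.4% and 31% in WT. Summed over the 4 analysed CpGs of the hairpin, 42.6% and 49.4% of reads were methylated in KO, against 29.6% and 24.8% in WT, and at each of the 4 both KO libraries lay above both WT libraries. From the first hairpin CpG to the fifth CpG of the tile, a span of 399 bp, this held at 11 of 12 CpGs. Among all single CpGs of the genome it held at 14.5%, but the span was ended at the last CpG with this separation, so its count is a description only. The exception was 1 highly methylated CpG just after the hairpin, at 86.8% and 89.1% in KO and 80.5% and 97.2% in WT. The CpG just before the hairpin, outside the span, overlapped as well, at 17.9% and 29.7% in KO and 25% and 26.7% in WT.

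Within the tile the separation ended after the fifth CpG, and the tile was split at that point for description. Its first 5 CpGs, spanning 188 bp, had 59.8% and 66.7% in KO, against 37.4% and 37.6% in WT, with single-CpG differences from 25.2 to 35.6 points. Its last 3 CpGs had 23.2% and 11.8% in KO and 15.9% and 16.9% in WT, overlapping. The next tile was highly methylated and overlapped, at 90.3% and 92.9% in KO and 94.2% and 92.4% in WT. The tile before, which holds the hairpin, had 55.8% and 61.8% in KO, against 46.9% and 44% in WT (13.3 points, p = 0.000511, quasi-binomial adjusted p = 0.177) and was not called.

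**Figure D4:**
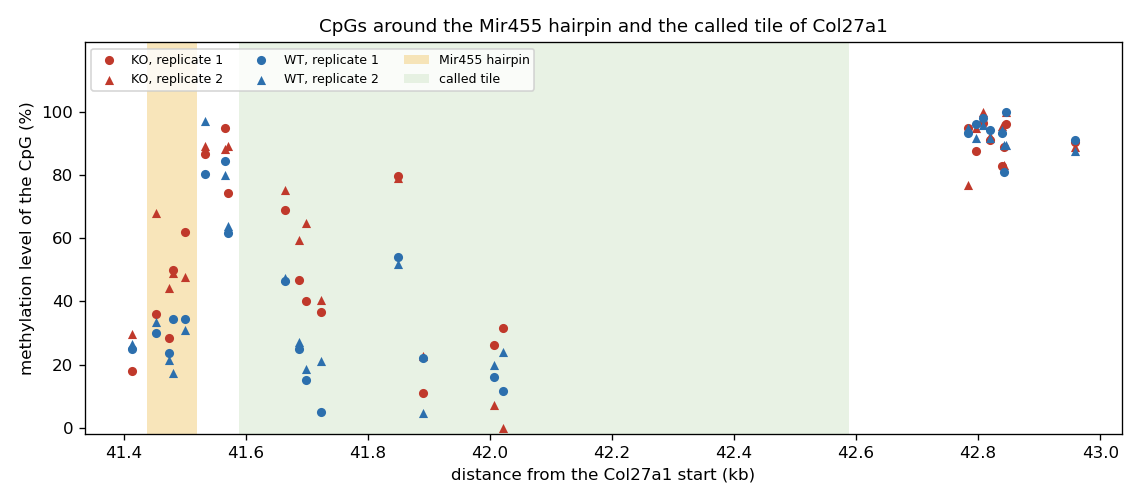
Methylation level (y axis, percent) of 24 CpGs of Col27a1 against distance from the gene start (x axis, kb), with 1 point per library, the Mir455 hairpin shaded yellow and the called tile green. Red KO points lie above blue WT points at all 4 hairpin CpGs and the first 5 CpGs of the tile, and mix with them at the tile's last 3 CpGs and beyond.

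Along the whole Col27a1 region 24 tiles were tested. Both KO libraries lay above both WT libraries in 10 and below in 2, against 19.6% and 14.9% of all tiles. The most dense tile at the start, with 65 CpGs, had 0.607% and 0.382% in KO and 0.281% and 0.752% in WT. In 15 of the 24 tiles all libraries were above 80%. Besides the called tile and the one before it, a tile centred 15.1 kb after the Col27a1 start had 53.6% and 52.6% in KO, against 48.8% and 38.8% in WT. In the other direction, a tile at 92.1 kb had 40.9% and 37.9% in KO, against 49% and 46% in WT.

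**Figure D5:**
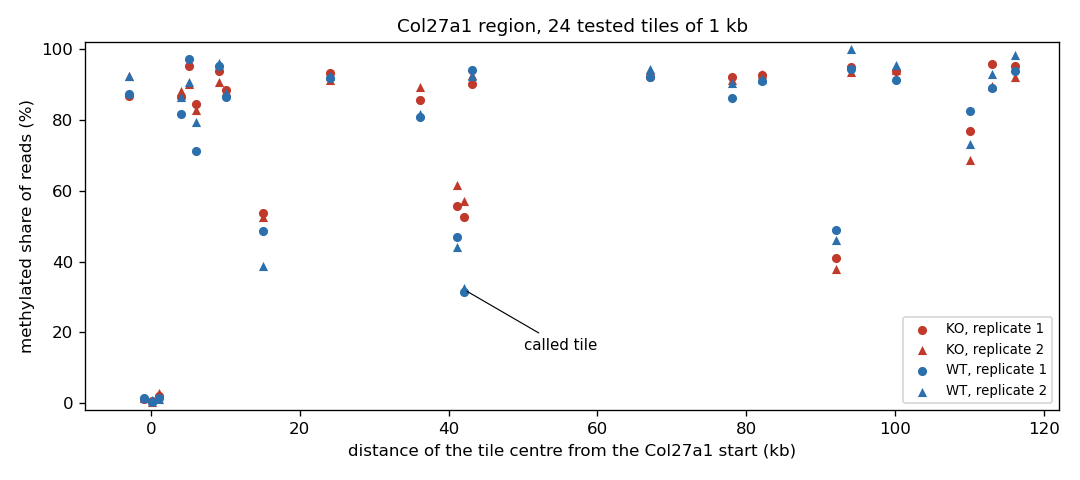
Methylated share of reads (y axis, percent) in the 24 tested 1-kb tiles of the Col27a1 region against the distance of the tile centre from the gene start (x axis, kb), with 1 point per library, KO in red and WT in blue. The called tile at 42.1 kb has KO at 52.5% and 57% above WT at 31.5% and 32.7%.

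Other tiles with wide differences and at least 20 reads per library were not called. Higher in KO were a tile of Col14a1 (chr15:55314001-55315000), with 92.9% and 90.5% in KO against 79.2% and 72.2% in WT (quasi-binomial adjusted p = 0.468), and one of Col28a1 (chr6:8044001-8045000), with 89% and 88.8% in KO against 77.8% and 70.8% in WT (quasi-binomial adjusted p = 0.495). A Col22a1 tile (chr15:71885001-71886000) had 89.6% and 92.2% in KO, against 75% and 78.6% in WT. None of these 3 overlapped between genotypes. A Col25a1 tile (chr3:130473001-130474000) had 50.8% and 42.9% in KO and 16.9% and 42.2% in WT, so that WT replicate 1 alone was low.

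Lower in KO were 2 tiles of Col4a2. The one at chr8:11405001-11406000 had 63.6% and 64.8% in KO, against 82.2% and 85.5% in WT (-19.6 points, quasi-binomial adjusted p = 0.493). The one at chr8:11374001-11375000 had 55.6% and 66.7% in KO, against 72.2% and 76.4% in WT. A Col4a1 tile (chr8:11249001-11250000) had 77.2% and 74.1% in KO, against 88.4% and 89.6% in WT. A Col9a1 tile (chr1:24248001-24249000) had 65.9% and 62.5% in KO, against 79.5% and 76.2% in WT. These 4 did not overlap, whereas a Col8a2 tile (chr4:126288001-126289000) did, at 39% and 19.4% in KO and 50.5% and 31.6% in WT.

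At single CpGs the quasi-binomial model called 0 of 4193 tested collagen CpGs, against 0.000732% of 1229673 in the genome, and 199 (4.75%) had an unadjusted p under 0.05, against 3.82% of all. With the dispersion prior taken only from CpGs of sufficient binomial variance the count was 0 as well. Differences of 20 points or more at CpGs read 20 or more times in all libraries occurred in both directions. A Col6a6 CpG (position 105810700 of chromosome 9) had 91.3% and 85.7% in KO, against 59.1% and 52.4% in WT. A Col1a1 CpG (94942830 of chromosome 11) had 58.3% and 59.1% in KO, against 29% and 28.6% in WT. In the other direction, a Col18a1 CpG (77057391 of chromosome 10) had 73.1% and 76.9% in KO, against 95.5% and 100% in WT, and a Col23a1 CpG (51433316 of chromosome 11) 41.2% and 42.9% in KO, against 64.5% and 78.3% in WT. A Col16a1 CpG (130086253 of chromosome 4) had 69.7% and 45.2% in KO, against 89.7% and 86.8% in WT. A CpG shared by the Col4a1 and Col4a2 regions (11308753 of chromosome 8) had 35.5% and 40% in KO, against 69.6% and 54.2% in WT. A Col4a2 CpG (11399835 of chromosome 8) had 57.8% and 69.2% in KO, against 87.2% and 81.8% in WT. None of these overlapped between genotypes. The widest mean difference, at a Col2a1 CpG (97994657 of chromosome 15), rested on uneven libraries, with 43.5% and 93.3% in KO and 0% and 52.4% in WT; 0 of 23 reads allows a share of up to 13%.

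Genes listed here for collagen synthesis, binding and turnover were split between the directions. Of 48 such genes 47 were tested (all but Mmp13), 23 higher and 24 lower in KO. Their median difference was -0.0278 points and limma called 0 (lowest adjusted p = 0.431). An unadjusted limma p under 0.05 was found for 6, all higher in KO (12.8% of 47). Among all regions it was found for 8.71% (1549, of which 1068 were higher). Tll2, a tolloid-like protease, had 56.8% and 55.5% in KO, against 54.4% and 54% in WT. Pcolce, which enhances the trimming of procollagen ends, had 26.7% and 24.7% in KO, against 23.7% and 22.9% in WT. Adamts2 and Adamts14, which remove the amino-terminal propeptide, had 42.9% and 43.2% in KO against 41.7% and 42.1% in WT, and 45.2% and 45.1% in KO against 44.4% and 44% in WT. The collagen receptors Ddr2 and Itga11 had 64% and 63.3% in KO against 61.9% and 62.4% in WT, and 68% and 68.3% in KO against 67% and 66.8% in WT. These 6 did not overlap between genotypes. Over the 47 tested, both KO libraries lay above both WT libraries in 13 (27.7%) and below in 7. Among all regions this held in 24.6% and 14.2%. The hydroxylase P4ha1, the chaperone Serpinh1 and the crosslinking enzyme Lox had no call either; Lox had 8.95% and 7.84% in KO, against 9.51% and 9.99% in WT.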

How the data were processed

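Per the labels' protocols, liver DNA was cut with TaqI and MspI, ligated, treated with bisulfite and amplified. For each library the authors deposited a level and a depth per cytosine on mm10, written by GBSA per the file headers; the deposited values are signed scores, negative at reverse-strand cytosines. BWA 0.7.12 and MACS are named, without a role, per the submitters' processing notes. Methylated reads were recovered as the product of level and depth, which was whole at 100% of positions (tolerance 1e-06).

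The 2 strands of a CpG were summed, and CpGs with at least 10 reads in all 4 libraries were kept. The 95% exact Clopper-Pearson interval of 5 methylated reads among 10 is 18.7% to 81.3%, and 0 among 10 allows a level of up to 30%, for counting error only. Regions, with at least 3 CpGs, were tested with limma 3.58.1 on unweighted mean levels in percent, with CpG number as trend. Start windows, 1-kb tiles (at least 3 CpGs each) and CpGs were compared by a moderated quasi-binomial fit to summed reads, the Pearson dispersion being shrunk by limma and held at 1 or above. For the 9 genes without a RefSeq start the gene end with more CpGs was used. P-values were two-sided and Benjamini-Hochberg adjusted over all autosomal features of the kind. Both models were tested on simulated data. At single CpGs the quasi-binomial model as used here missed the changes put into those data, so its count of 0 carries little weight, and a prior from informative CpGs was run beside it.

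The text names genes with a called feature, the 2 members with the smallest region p in each structural class, Col1a1, Col1a2, Col3a1, Col4a1, Col4a2, Col6a1, Col6a2 and Col18a1, and the 5 tiles and CpGs that differed most in either direction among those with 20 or more reads per library. Other genes, the Mir455 hairpin and the stretch of CpGs around it were named after their values were seen. The members, lists and tests were chosen with earlier results of these data known. Alternatives covered coverage, windows, tests, depth, the prior, a block on the replicate number, and leaving out each library. Gene bounds came without exons, which were not analysed here. R 4.3.3, the package data.table (1.17.8), pandas 2.3.3, scipy 1.17.1 and matplotlib 3.10.9 were used.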

Additional observations from a re-analysis of the deposited data

How the results depend on the processing

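The counts of 0 called collagen regions and start windows held under every alternative run for them. The count of 1 called tile held at 5 and 20 reads, with no or a 20-point minimum difference, with the other prior, with tiles of 1 CpG or shifted by 500 bp and without deep CpGs; it was 0 with limma on unweighted means and 0 with the replicate block. Leaving out any 1 library gave 0 called tiles each time with the prior from all features, which then called 0 to 3 tiles in the genome and cannot speak to stability, and 1 to 2 with the prior from informative features, chosen after seeing the data. In those fits the Col27a1 tile stayed called in each (adjusted p from 0.000615 to 0.0182); the added tiles were 1 of Col4a1 without KO replicate 1 and 1 more of Col27a1 without WT replicate 2. Without its most different CpG the Col27a1 tile differed by 21.3 points (adjusted p = 0.00691). Over all alternatives the adjusted p of this tile ran from 2.09e-06 to 0.984. The replicate numbers did not pair the libraries: across gene regions the differences KO replicate 1 minus 2 and WT replicate 1 minus 2 correlated at 0.00705. With the replicate block and the informative prior there were 1 tile and 3 single CpGs called, in Col16a1 (100% and 100% in KO, 29.4% and 100% in WT), Col23a1 (0% and 100% in KO, 5.88% and 0% in WT) and Col2a1 (43.5% and 93.3% in KO, 0% and 52.4% in WT). At each of these 3 CpGs the genotypes overlapped. The mean difference over collagen CpGs was 0.519 to 1.07 points with 1 library left out and 0.441 from summed reads. Gene regions changed sign as follows: at 5 reads, Col1a2 to -0.547, Col6a5 to -0.218 and Col6a3 to -0.0699; at 20 reads, Col1a2 to -0.429, Col6a2 to 0.329, Col18a1 to -0.431, Col8a2 to 0.255 and Col23a1 to -0.361; with summed reads, Col1a2 to -1.67, Col6a1 to -1.69 and Col18a1 to -0.0664; and for the gene body only, Col4a1 to 0.0476. With 1 library left out, differences ran from -0.321 to 0.15 for Col4a1, -1.82 to 0.082 for Col4a2, -1.49 to 0.134 for Col6a2, -0.117 to 2.91 for Col26a1, -1.15 to 3.22 for Col1a2, -1.25 to 0.459 for Col8a2, -0.771 to 3.25 for Col6a1 and -21.6 to 1.98 for the Col8a2 tile. Differences also moved by over 1.5 times for Col13a1 (0.194 without WT replicate 2 to 1.99 without WT replicate 1), Col15a1 (0.443 and 1.23 in those fits), Col23a1 (0.297 and 1.45), Col6a3 (0.499 without WT replicate 2) and Col6a5 (0.412 without KO replicate 2 to 2.41 without KO replicate 1), in summed reads for Col19a1 (3.87) and Col27a1 (2.74), and with limma on unweighted means for the start windows of Col26a1 (0.654) and Col8a2 (1.07). Leaving out a library also let in CpGs that the other 3 covered. The cause of these changes was not tested. Depth limits single CpGs most, with a median of 21 to 23 reads, and 12 starts had fewer than 3 analysed CpGs.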
